A study of Mus musculus with 12 samples.

Results

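The cytosolic ribosomal protein genes were described in mouse helper T cells that differed in Dgcr8 and in miR-29. The set was chosen by gene symbol alone: every symbol of the Rpl and Rps series with a number, plus Rplp0, Rplp1, Rplp2 and Rpsa, without the S6 kinases, a binding protein of Rps19 and pseudogenes. It held 83 genes with 119 probes on the array, out of 17174 genes with a named probe, and each gene was represented by its brightest probe. All 83 were among the 14699 genes that passed a filter on dim probes (a probe well above background on at least 3 of 12 arrays). By role, 43 encode proteins of the large (60S) subunit, 31 encode proteins of the small (40S) subunit, 3 encode the acidic stalk, and 6 are paralogs of a core member (Rpl22l1, Rps27l, Rpl3l, Rpl39l, Rpl36al and Rpl7l1).

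Total RNA was hybridised to 12 Agilent arrays in 1 colour, with 3 mice per genotype and both arrays of a mouse hybridised on 1 slide. All mice were C57BL/6, aged 7 weeks. Helper T cells were stimulated through CD3 and CD28 for 65 hours, grown with IL-2 for a further 48 hours, electroporated on day 1 and on day 4, and harvested on day 5, 24 hours after the last transfection. The Dgcr8-deficient cells received either miR-29b or a control miRNA. The wild-type cells received either miR-29 inhibitors or control inhibitors, so the controls of both genotypes differed in the kind of oligonucleotide as well as in Dgcr8, and these cannot be told apart between them. How Dgcr8 was deleted, and in which cells, is not given in the sources used here.

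A ribosome needs about equal amounts of each of its proteins, and cells control the set as a block. Most of these mRNAs begin with a terminal oligopyrimidine motif (a cytosine at the first base followed by more pyrimidines), through which mTOR signalling and the repressor Larp1 set their translation and stability, while Myc drives the transcription of many of them. An activated T cell builds ribosomes in large numbers before it divides. Dgcr8 is the partner of Drosha in the nuclear step of microRNA processing, so cells without it lose most microRNAs. miR-29 is a microRNA family known in helper T cells for restraining the interferon gamma program.

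The members of the miR-29 family share the seed that pairs with target mRNAs, and are shown because miR-29b was the transfected agent. The arm is not named in the labels, and the RefSeq 3p sequences (GRCm38.p6) read as follows, with the seed (bases 2 to 8) in capitals.
miR-29a-3p: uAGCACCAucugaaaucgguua
miR-29b-3p: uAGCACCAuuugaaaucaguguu
miR-29c-3p: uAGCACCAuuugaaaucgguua

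The start sites of 7 members are shown because the oligopyrimidine motif lies there: the 6 with the smallest p between genotypes that had an entry in the RefSeq promoter table (GRCm38.p6), and Rps3a1, which stood apart with miR-29b. Each stretch has 10 bases before the annotated start and 20 from it on, along the strand of the gene. Capitals mark the longest run of pyrimidines that begins with C within 5 bases of the start and is at least 5 long. Runs are counted from that C on, so pyrimidines can also precede the capitals, as in Rpl14 and Rpl28.
Rpl14 at chr9:120571507-120571536 (+): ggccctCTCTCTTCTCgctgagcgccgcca
Rpl31 at chr1:39367841-39367870 (+): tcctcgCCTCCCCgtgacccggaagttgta
Rpl28 at chr7:4792955-4792984 (+): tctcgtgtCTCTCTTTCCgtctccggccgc
Rpl27a at chr7:109519185-109519214 (+): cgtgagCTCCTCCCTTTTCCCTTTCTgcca
Rps6 at chr4:86857348-86857377 (-): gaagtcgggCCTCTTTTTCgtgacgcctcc
Rpl7l1 at chr17:46782637-46782666 (-): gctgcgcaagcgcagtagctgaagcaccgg
Rps3a1 at chr3:86142649-86142678 (-): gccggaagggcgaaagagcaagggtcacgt

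Of the 83 members, 63 had an entry in the promoter table. A run of at least 8 pyrimidines that began with C within 5 bases of the start was found in 21 of these 63 (33.3%), against 5.17% of all 27025 genes with an entry. Rpl27a held the longest run of those shown, with 20 bases, and Rpl14, Rpl28 and Rps6 each held 10. The paralog Rpl7l1 and the 40S member Rps3a1 held none of 5 or more in this window, which says only that these letters are not there.

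Dgcr8 itself, the deleted gene, had levels of -0.68, -1.19 and -0.10 on the control arrays of Dgcr8-deficient mice 2, 3 and 4, and -0.61, -1.06 and -0.31 on their miR-29b arrays. In wild-type mice 2, 3 and 4 it stood at -0.12, 1.04 and 0.24 with control inhibitors and at -0.02, 0.76 and -0.09 with miR-29 inhibitors. Like all levels here, these are log2 values from which the 75th percentile of their array was subtracted. The levels of both genotypes overlapped, and the difference of -1.04 ± 0.38 (SE) between controls did not pass in limma (adjusted p = 0.0777) but passed with the mouse as a random block (adjusted p = 0.0489). The position of the probe against the deletion is unknown. The arrays had 28896 to 33992 of 43379 spots well above background, with 68 to 193 outlier spots on 11 arrays and 1458 on the miR-29b array of Dgcr8-deficient mouse 3. All 8 helper T cell markers passed the filter.

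Ribosomal protein genes gave bright signals on every array. The median over the members was 6.58, 6.56 and 6.87 in Dgcr8-deficient mice 2, 3 and 4 with control miRNA, and 6.76, 6.99 and 7.18 with miR-29b. In wild-type mice 2, 3 and 4 it was 7.05, 7.58 and 7.51 with control inhibitors, and 7.37, 7.70 and 7.39 with miR-29 inhibitors. The control groups of the genotypes did not overlap, with every Dgcr8-deficient control array under every wild-type control array. Over all genes the same medians lay between -0.61 and -0.43. For 73 members the scanner read the spot on its low-gain scan on all 12 arrays, and 80 of 83 were well above background on all 12.

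**Figure D1:**
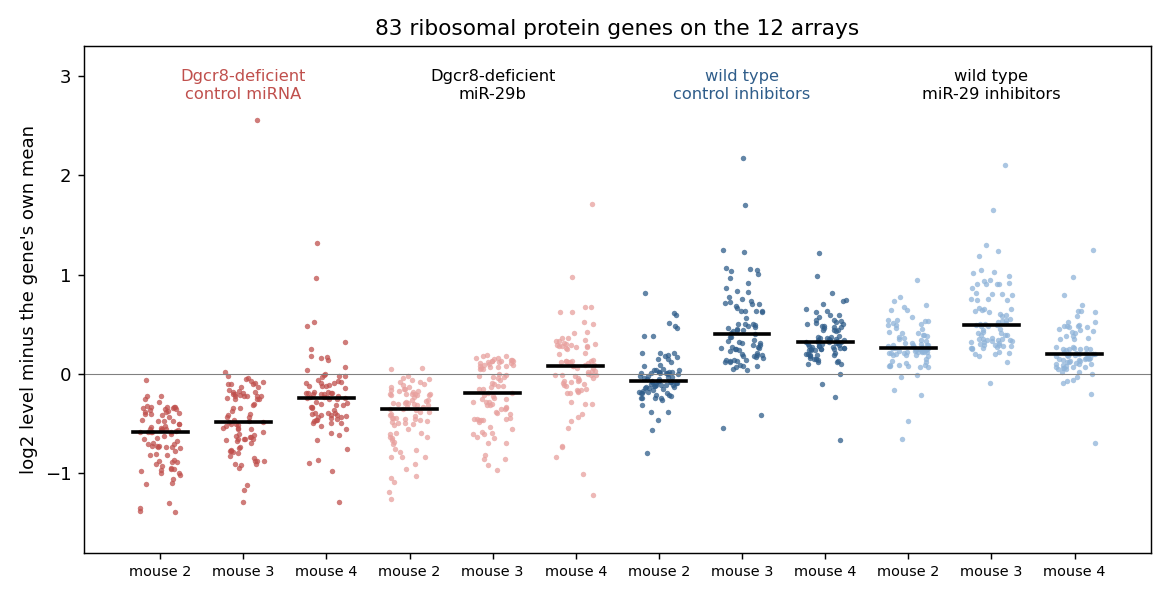
Each point is 1 of the 83 ribosomal protein genes on 1 array, plotted as its log2 level minus its own mean over the 12 arrays (y axis), with the arrays ordered by group (x axis) and the median of the members as a black bar. All 3 Dgcr8-deficient control arrays have medians below all wild-type arrays, and wild-type mouse 2 lies under the other wild-type control mice.

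Between the control groups, 31 of the 83 members were lower in Dgcr8-deficient cells and 0 were higher (limma, adjusted p under 0.05). Over all genes tested, 12.4% were lower and 9.52% higher by the same rule, and at an unadjusted p under 0.05 the members counted 0 higher and 57 lower, against 13.7% and 18.9% of all genes. With the mouse as a random block 30 members were lower, where 11.3% of all genes were. The median log2 difference over the members was -0.64, against -0.07 over all genes, and 82 of 83 lay below 0, where 45.2% of all genes lay above 0. That count was 76 with quantile normalization, 75 with cyclic loess and 81 with the authors' values. The 31 members were up to 3.37-fold lower with a median of 1.97-fold, and 15 of them more than 2-fold. For 52 members every Dgcr8-deficient control array lay under every wild-type control array, which held for 21.3% of all genes.

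On the brightest probes, the set was not lower to an equal degree across its parts. Among the 60S genes 19 of 43 were lower (median -0.68), among the 40S genes 9 of 31 (median -0.64), among the paralogs 3 of 6 and among the stalk genes 0 of 3 (median -0.17). These differences between classes were not tested. The stalk probes were bright, with mean levels of 7.97 to 8.10. Of other bright members, Rps23 and Rps16 had -0.28 and -0.30, while Rpl41 had -0.77. A second, dimmer probe of the stalk gene Rplp0 gave -0.78. Beside the 8 genes described next, the 60S genes that were lower were Rpl22, Rpl21, Rpl35, Rpl6, Rpl36a, Rpl41, Rpl26, Rpl15, Rpl36, Rpl4, Rpl34, Rpl9 and Rpl39. The 40S genes that were lower included Rps6, Rps15a, Rpsa, Rps21, Rps26 and Rps25.

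**Figure D2:**
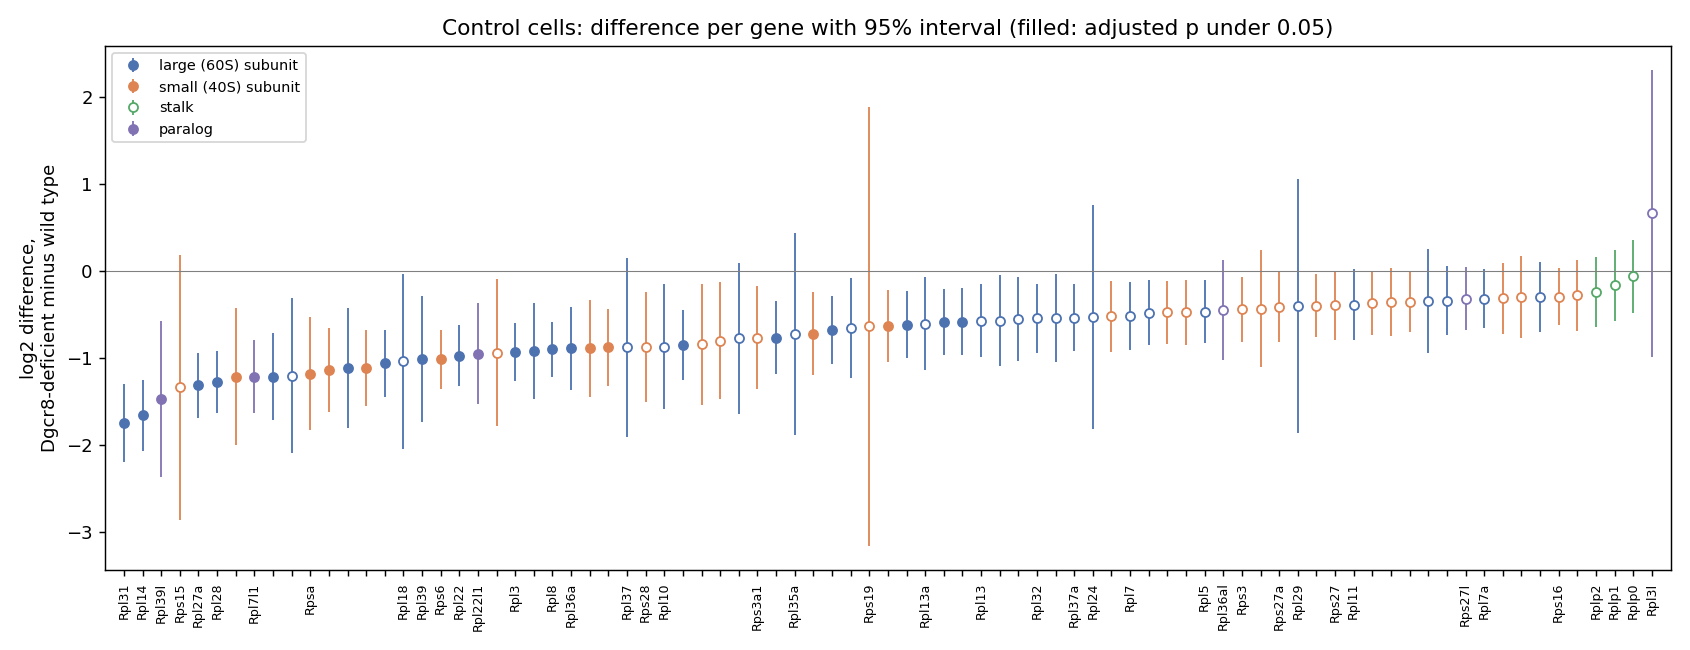
The log2 difference between Dgcr8-deficient and wild-type control cells (y axis) is plotted for each of the 83 genes (x axis, in order of the difference, with some genes described in the text named) with its 95% interval from limma, n = 3 mice per group. Filled points passed an adjusted p of 0.05, all of them below 0, and the stalk genes and Rpl3l lie at the right end.

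The smallest p belonged to Rpl14, a protein of the large subunit. Its level was 1.11, 1.44 and 1.08 in the Dgcr8-deficient controls and 2.87, 2.69 and 3.04 in the wild-type controls of mice 2, 3 and 4. The groups were far apart relative to their spread, with a log2 difference of -1.66 ± 0.18 (SE, n = 3 mice per group; limma, adjusted p = 0.000173). Rpl31, which lies near the exit of the tunnel for the nascent chain, stood at 0.46, 0.89 and 1.15 against 2.38, 2.79 and 2.58, a log2 difference of -1.75 ± 0.21 (adjusted p = 0.000227). Its second probe, dimmer on average, gave -1.52. On the 2 slides that carried both genotypes, the difference was -1.77 and -1.61 for Rpl14 and -1.91 and -1.65 for Rpl31.

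Rpl28 and Rpl27a, both of the large subunit, followed the same pattern. Rpl28 stood at 6.68, 6.36 and 6.51 against 7.78, 7.64 and 7.97, a log2 difference of -1.28 ± 0.16 (adjusted p = 0.000342). Rpl27a stood at 2.85, 3.34 and 2.94 against 4.28, 4.26 and 4.54, a log2 difference of -1.32 ± 0.17 (adjusted p = 0.000359). In both genes every Dgcr8-deficient control array lay below every wild-type control array.

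Rps6 was the 40S gene with the smallest p. It encodes the small-subunit protein that S6 kinases phosphorylate downstream of mTOR. Its level was 5.71, 5.82 and 5.82 in Dgcr8-deficient controls and 6.58, 6.82 and 7.00 in wild-type controls, a log2 difference of -1.02 ± 0.15 (adjusted p = 0.00101). Rpl8 and Rpl3, large-subunit proteins close to the peptidyl transferase centre, had differences of -0.90 ± 0.14 and -0.94 ± 0.15 (adjusted p = 0.00139 and 0.00143). They were also among the members with the smallest spread within groups, with pooled SDs of 0.10 and 0.12 where the median member had 0.20.

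The paralogs were set beside their core genes. Rpl7l1 stood at 0.63, 0.71 and 0.28 against 1.77, 1.68 and 1.83, a log2 difference of -1.22 ± 0.19 (adjusted p = 0.00124), while Rpl7 had -0.52 ± 0.18, which did not pass (adjusted p = 0.0617). With the dimmer probe of Rpl7l1 the call was lost (adjusted p = 0.119). For Rpl7, a dimmer probe gave -0.98 and passed over all kept probes (limma, adjusted p = 0.0361). Its dimmest probe gave -1.15 and did not pass (adjusted p = 0.0660). The contrast between Rpl7l1 and Rpl7 thus depended on the probe. Rpl22, which is required for the development of alpha-beta T cells, had -0.98 ± 0.16 (adjusted p = 0.00167). Its paralog Rpl22l1 had -0.96 ± 0.26 (adjusted p = 0.0248), so both were lower on their brightest probes. The dimmer probe of Rpl22 gave 0.0002. Rpl39l, a paralog best known from testis, had -1.48 ± 0.41 (adjusted p = 0.0248), and Rpl39 had -1.02 ± 0.33 (adjusted p = 0.0496). Rpl36al and Rps27l did not pass (-0.45 ± 0.26 and -0.32 ± 0.16), while Rpl36a had -0.89 ± 0.21 and passed (adjusted p = 0.0131), and Rps27 had -0.39 ± 0.18 and did not (adjusted p = 0.155).

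The only member above 0 was Rpl3l, a paralog of Rpl3 known from striated muscle, at 0.66 ± 0.74 (adjusted p = 0.619). Its levels were near the bottom of the scale on every array, with -6.22, -3.19 and -6.18 in the Dgcr8-deficient controls, and 1 array set its mean. It was also the member that was not well above background on 1 of the arrays.

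The stalk recruits the elongation factors to the large subunit. Rplp0, its base and a common reference gene in PCR, had levels of 7.76, 7.96 and 7.94 in Dgcr8-deficient controls and 7.64, 8.06 and 8.16 in wild-type controls. The groups overlapped, and the log2 difference was -0.06 ± 0.19 (limma, adjusted p = 0.876), -0.17 ± 0.18 for Rplp1 and -0.24 ± 0.18 for Rplp2. All 3 differences turned positive with quantile normalization (0.25, 0.13 and 0.04) and with cyclic loess (0.25, 0.15 and 0.07). The second, dimmer probe of Rplp0 gave -0.78 on the 75th percentile scale and passed over all kept probes (adjusted p = 0.0126), so the probes of this gene did not give the same answer.

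Members with a known role outside the ribosome were on both sides of the threshold. Rpl5 and Rpl11, which with 5S rRNA bind Mdm2 when ribosome assembly fails, had -0.47 ± 0.16 and -0.39 ± 0.18 and did not pass (adjusted p = 0.0675 and 0.176). Rpsa, also described as a laminin receptor precursor, had -1.18 ± 0.29 and passed (adjusted p = 0.0155). Rpl13a, a silencer of inflammatory mRNAs, had -0.61 ± 0.24 (adjusted p = 0.103). Rps3, a DNA repair and NF-kappaB cofactor, had -0.44 ± 0.17 (adjusted p = 0.0925), Rps14 had -0.35 ± 0.16 (adjusted p = 0.149), and Rpl10 had -0.87 ± 0.33 (adjusted p = 0.0834). None of these last 4 passed.

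Next to the threshold, the passing member with the largest adjusted p was Rpl39, and the nearest on the other side were Rpl37a at -0.54 ± 0.17 (adjusted p = 0.0502), Rpl32 at -0.55 ± 0.18 (adjusted p = 0.0510), Rps28 at -0.88 ± 0.29 (adjusted p = 0.0527) and Rpl13 at -0.57 ± 0.19 (adjusted p = 0.0559). The 95% intervals of 57 members excluded 0. Within slides, where scan conditions are shared, the median over the members was -0.58 on the slide with Dgcr8-deficient mouse 2 and wild-type mouse 2 (80 of 83 below 0), and -0.68 on the slide with Dgcr8-deficient mouse 4 and wild-type mouse 3 (79 of 81 below 0). With slide as a block 69 members were lower, and with scan day as a block 64. These fits called 6130 and 5836 of all genes in either direction, against 3216 in the main fit. The slide fit takes the genotype difference from the slides that held both genotypes. Without 1 of the 6 control arrays the count of lower members was 17, 23 and 32 (Dgcr8-deficient mice 2, 3 and 4) and 34, 18 and 16 (wild-type mice 2, 3 and 4). Those fits called 2319 to 2733 of all genes. The member count was 13 with cyclic loess, 19 with quantile normalization and 18 on the 6 control arrays alone, where 3313, 3331 and 2388 of all genes were called.

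B cell markers moved with the genotype. Of 6 such genes 5 were higher in Dgcr8-deficient controls, and their summed log2 level was 2.13 to 3.26 there against -1.48 to -0.94 in wild-type controls. Among helper T cell markers Lck was lower (-0.65) and Cd28 higher (1.26), and the other 6 did not pass, with a summed level of 8.02 to 8.24 against 8.25 to 8.54. Among 10 cycling markers Cdk1 was higher (0.56) and the other 9 did not pass. Of the 10, 6 lay above 0 and 4 below, the lowest at -1.03, with a summed level of 8.51 to 8.62 against 8.44 to 8.55. Of 4 NK cell markers 1, Klrd1, was lower (-2.54), and the other 3 lay above 0 without passing (Klrb1c at 0.82, Ncr1 at 1.06 and Klra8 at 2.01), with a summed level over the 4 of -1.83 to -0.56 against 0.36 to 1.56. Of 5 myeloid markers past the filter Adgre1 and Fcgr3 were lower. The summed level over the 6 myeloid markers with a probe was -1.93 to -1.12 against -0.48 to 0.42. The 1 measured CD8 T cell marker (-2.84 to -1.52 against -2.65 to -2.37) and the 2 erythroid markers past the filter did not pass. The summed level over the 3 erythroid markers with a probe was -3.27 to -2.45 against -2.83 to -2.11. In such bulk samples fewer cells of a type and less RNA per cell cannot be told apart, and the part of these markers in the ribosomal protein difference was not tested.

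With a run of at least 8 pyrimidines at the start, 10 of 21 members were lower in Dgcr8-deficient cells (median of all 21, -0.88). Without such a run, 14 of 42 were lower (median -0.60). The remaining 20 members, Rpl3 and Rpl8 among them, had no entry. These counts are a description, and the difference between them was not tested.

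With miR-29b in Dgcr8-deficient cells, 0 of 83 members passed in limma, where 2.29% of all genes did. At an unadjusted p under 0.05, 8 members were higher and 1 was lower, against 7.08% and 6.91% of all genes. The groups did not overlap for 18 members upward and 1 downward, which held for 8.8% and 7.31% of all genes. The members nevertheless lay to one side: 77 of 83 log2 differences were above 0, with a median of 0.30 against 0.07 over all genes and 57.9% of all genes above 0. By mouse the median was 0.25, 0.29 and 0.32 in mice 2, 3 and 4, each pair of arrays sharing a slide, and 73 of the 81 members with values in all 3 mice were above 0 in each. The size depended on scaling, with medians of 0.14 with quantile normalization, 0.16 in the authors' values and 0.18 with median centring. The counts by mouse did too. In mouse 3, 45 members lay above and 38 below 0 with median centring, and 60 and 23 with quantile normalization. In mice 2 and 4, 76 and 75 members were above 0 with median centring, and 73 and 67 with quantile normalization. Median centring itself moved the median of all genes from 0.07 to -0.05 and, between genotypes, from -0.07 to -0.17.

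The mouse numbers pair arrays of the same animal, and with the mouse as a block 11 members passed in this comparison, 9 higher and 2 lower. By that fit 10.6% of all genes were higher and 10.3% lower, so 9 of 83 is close to the background. The 9 were Rpl3, Rpl13a, Rpl17, Rpl18, Rpl22, Rpl28, Rpl35, Rpl41 and Rps21. Rpl3 had the smallest p upward: 6.51, 6.59 and 6.76 in the controls and 6.96, 7.11 and 7.16 with miR-29b. Its groups did not overlap, and its log2 difference was 0.45 ± 0.15 (adjusted p = 0.175, blocked 0.0227). Rpl28 had 0.41 ± 0.16 (adjusted p = 0.268, blocked 0.0480), and Rpl22 had 0.39 ± 0.16 (adjusted p = 0.287, blocked 0.0424).

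Against this shift, 6 members lay below 0 with miR-29b: Rps27a, Rps3a1, Rpl29, Rpl3l, Rpl22l1 and Rpl10a. They did so under quantile normalization, cyclic loess, median centring, normexp and in the authors' values as well. Rps27a encodes a fusion of ubiquitin with a 40S protein, and so is also a source of ubiquitin. Its level was 6.54, 6.47 and 6.58 in the controls and 5.55, 6.05 and 5.76 with miR-29b, without overlap. The log2 difference of -0.74 ± 0.18 missed the threshold (adjusted p = 0.0666) but passed in the fit blocked on the mouse (adjusted p = 0.0251), with quantile normalization (adjusted p = 0.0192) and in the authors' values (adjusted p = 0.0133). It passed in 6 of 27 alternative settings, whose adjusted p ranged from 0.0133 to 0.357.

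Rps3a1, a protein of the small subunit, had levels of 6.32, 6.53 and 7.07 in the controls and 5.71, 6.08 and 6.36 with miR-29b. The groups overlapped, but each mouse was lower with miR-29b, by -0.61, -0.45 and -0.72. The log2 difference was -0.59 ± 0.27 (adjusted p = 0.358), and the fit blocked on the mouse called it lower (adjusted p = 0.00995). Its second probe gave -0.41. Rps3a1 and Rps27a were the only members that were lower in the blocked fit, where 10.3% of all genes were lower.

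Rpl29, a 60S protein also known for binding heparan sulfate, was lower in each Dgcr8-deficient mouse by a smaller amount (-0.36, -0.18 and -0.28). Its 4 probes gave -0.28, -0.13, -0.17 and -0.16. The SE of the mean difference, -0.28 ± 0.66, came from the spread in all 4 groups and was large. The arrays of Dgcr8-deficient mouse 4 and of wild-type mouse 3 stood far above the others of their groups. Without the control array of Dgcr8-deficient mouse 4 the estimate was 0.28. Without the miR-29b array of Dgcr8-deficient mouse 2 it was 0.06, also a change of sign. Rpl3l had -0.93 ± 0.74, with -2.39 in mouse 3 and between -0.28 and -0.12 in the others.

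**Figure D3:**
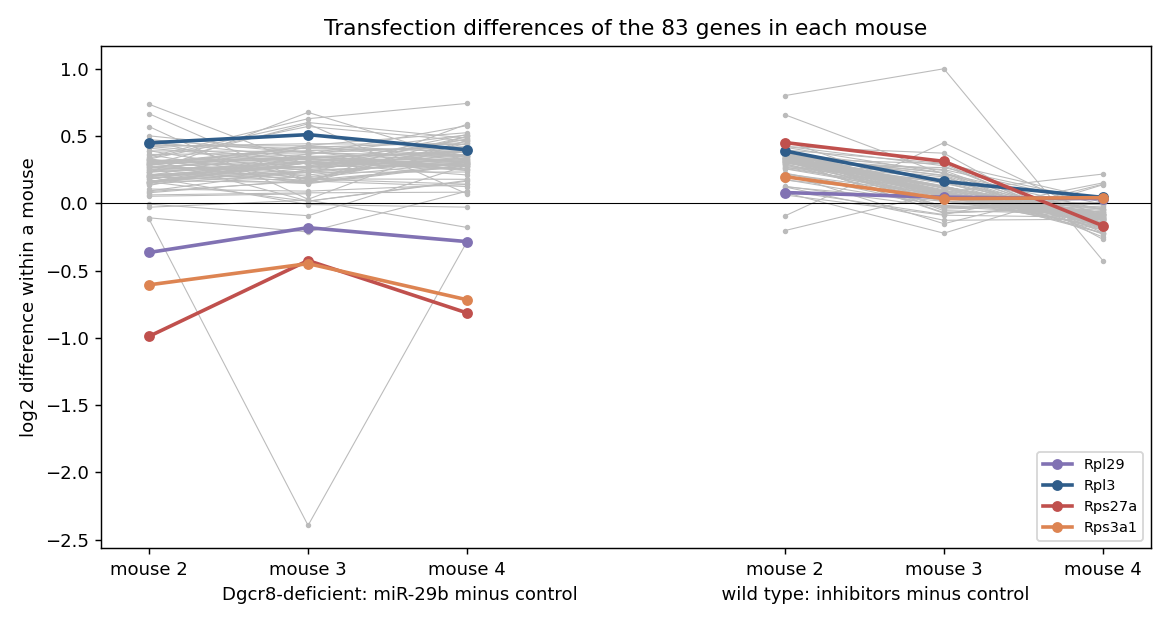
The log2 difference between both arrays of a mouse (y axis) is drawn for each gene, for miR-29b against control in Dgcr8-deficient mice (left) and for inhibitors against control in wild-type mice (right); a line joins the points of 1 gene and the mice have no order. On the left most genes lie above 0 while Rps27a, Rps3a1 and Rpl29 lie below 0 in all 3 mice, and on the right the members shift together, upward in mouse 2 and downward in mouse 4.

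Cell cycle markers moved with miR-29b. Of 10 such genes 2, Aurkb and Ccna2, were lower (log2 differences of -0.74 and -0.71) and 9 lay below 0, and their summed log2 level was 7.86 to 8.20 with miR-29b against 8.51 to 8.62 in the controls. Of 8 helper T cell markers 0 passed in limma, 3 had an unadjusted p under 0.05 upward and 7 lay above 0, with a median of 0.25. Their summed log2 level was 8.46 to 8.67 with miR-29b against 8.02 to 8.24 in the controls, without overlap. B cell markers had summed levels of 2.35 to 3.42 and 2.13 to 3.26 in the same groups. The part of the cell cycle and helper T cell markers in the shift of the ribosomal protein genes was not tested.

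With miR-29 inhibitors in wild-type cells, 0 of 83 members passed in limma, and 0 had an unadjusted p under 0.05. Over all genes 0% passed, with 63 genes (0.429%) at an unadjusted p under 0.05. Of the members 80 had a log2 difference above 0, with a median of 0.10 against 0.02 over all genes, where 55.2% of all genes were above 0. The mice differed: the median was 0.33 in mouse 2 (80 of 82 above 0), 0.08 in mouse 3 (68 of 82) and -0.11 in mouse 4 (72 of 83 below 0). Only 5 members, Rpl3, Rpl29, Rpl35a, Rpl39l and Rps3a1, were above 0 in all 3 mice. With quantile normalization the median was 0.0041 (47 above 0) and in the authors' values 0.011 (50 above 0), so the shared direction was near absent on those scales.

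The smallest p among the members in wild-type cells belonged to Rpl30, at 0.46 ± 0.27, with 0.80, 1.002 and -0.42 in the 3 mice. Rpl6 had 0.27 ± 0.18, Rpl3 0.20 ± 0.15 and Rps6 0.19 ± 0.15, each with an adjusted p of 0.99999 in limma. The 3 members below 0 were Rpl21, Rpl31 and Rpl7l1 (-0.04 for Rpl31). The 95% interval reached 0.42 to either side of the estimate for the median member, and 73 members had an upper bound under 1.

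For the difference between the miR-29b effect and the inhibitor effect, 0 members passed in limma, where 0.19% of all genes did. Only Rps27a had an unadjusted p under 0.05 (downward, as did 4.19% of all genes), with -0.94 ± 0.26 (adjusted p = 0.239). With the mouse as a block 1 member passed, Rps3a1 at -0.68 (adjusted p = 0.0374), where 3.97% of all genes were lower. The members with the smallest p upward were Rpl28 at 0.39 ± 0.23, Rpl21 at 0.42 ± 0.25, Rpl22 at 0.30 ± 0.23 and Rpl27a at 0.30 ± 0.24, none past the threshold in either fit. Genotype and agent both differ between these effects and cannot be told apart.

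The means of the 4 groups are given side by side for Rpl22 and Rps27a, in the order Dgcr8-deficient control, Dgcr8-deficient with miR-29b, wild-type control and wild type with inhibitors. The miR-29b and genotype comparisons share the Dgcr8-deficient control arrays. Rpl22 had means ± SD of 6.03 ± 0.16, 6.43 ± 0.11, 7.01 ± 0.19 and 7.10 ± 0.10 (n = 3 each). Rps27a had 6.53 ± 0.05, 5.79 ± 0.25, 6.94 ± 0.25 and 7.14 ± 0.11.

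**Figure D4:**
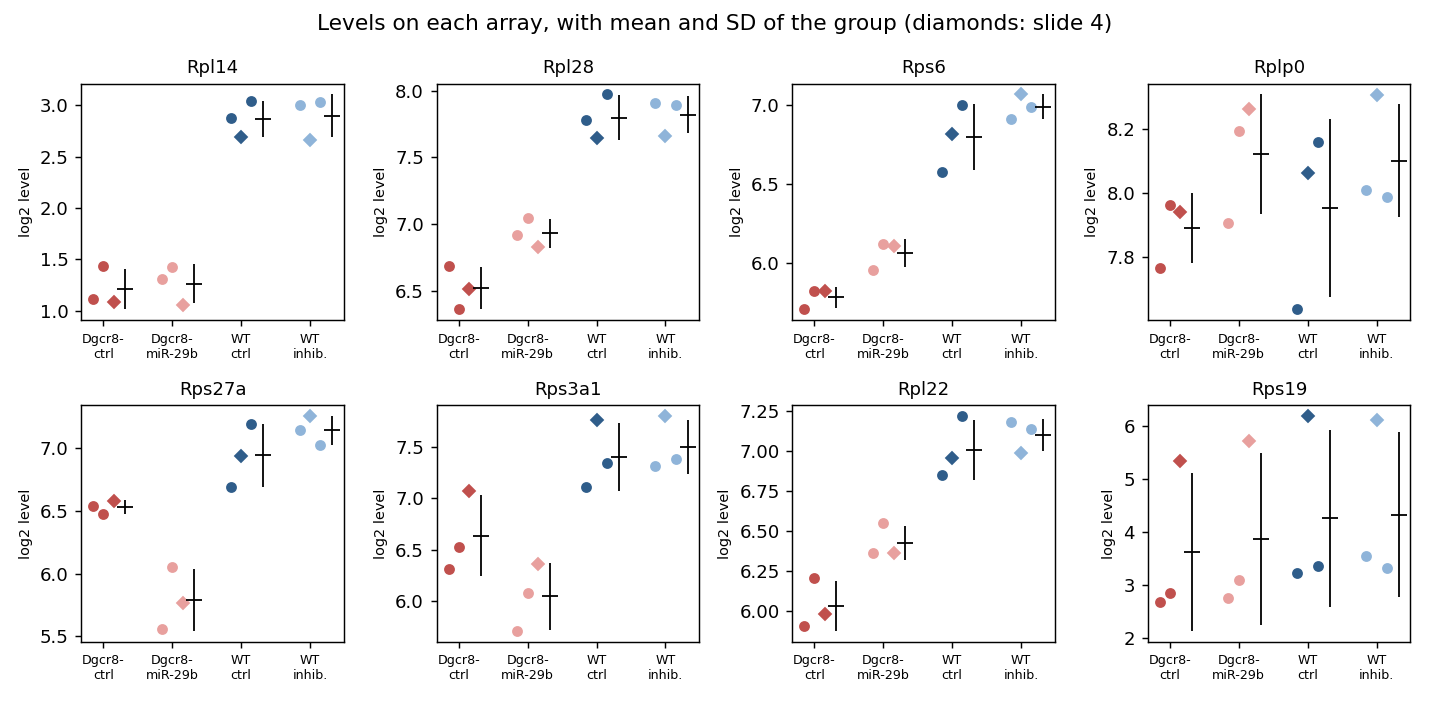
Log2 levels of 8 members on each array (y axes, each with its own range) by group (x axis; Dgcr8-, Dgcr8-deficient; WT, wild type; ctrl, control oligonucleotide; inhib., miR-29 inhibitors), with mean and SD beside the points (n = 3) and diamonds for the arrays of slide 4. Rpl14, Rpl28, Rps6 and Rpl22 separate the genotypes, Rplp0 does not, Rps27a and Rps3a1 are lowest with miR-29b, and Rps19 separates slide 4 from the rest.

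The largest spread within groups followed 1 slide in most of the members that had it. Slide 4 held both arrays of Dgcr8-deficient mouse 4 and of wild-type mouse 3 and was the only slide scanned on the second day, so each group had 1 array on it. Rps19, the gene most often mutated in Diamond-Blackfan anaemia, had levels of 5.34, 5.73, 6.19 and 6.12 on its arrays. On the other arrays Rps19 lay between 2.67 and 3.55. The pooled SD of 1.59 was the highest of the members, and Rps15 (0.95) and Rpl29 (0.91) had the same form. The dim Rpl3l (1.03) did not.

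The offset was similar in all 4 groups. For Rps19 the slide 4 array exceeded the mean of the other arrays of its group by 2.58, 2.79, 2.899 and 2.69, and for Rps15 by 1.66, 1.64, 1.72 and 1.51. By this measure 7 members were above 1 in the mean of the groups: Rps19, Rps15, Rpl29, Rpl24, Rpl35a, Rpl37 and Rpl18. Of the 81 members with values in each group, 8.64% exceeded 1 and 25.9% exceeded 0.5, against 3.37% and 13.3% of all genes, and the median was 0.22 against -0.11. Rpl39l and Rpl3l went the other way (both -0.68).

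**Figure D5:**
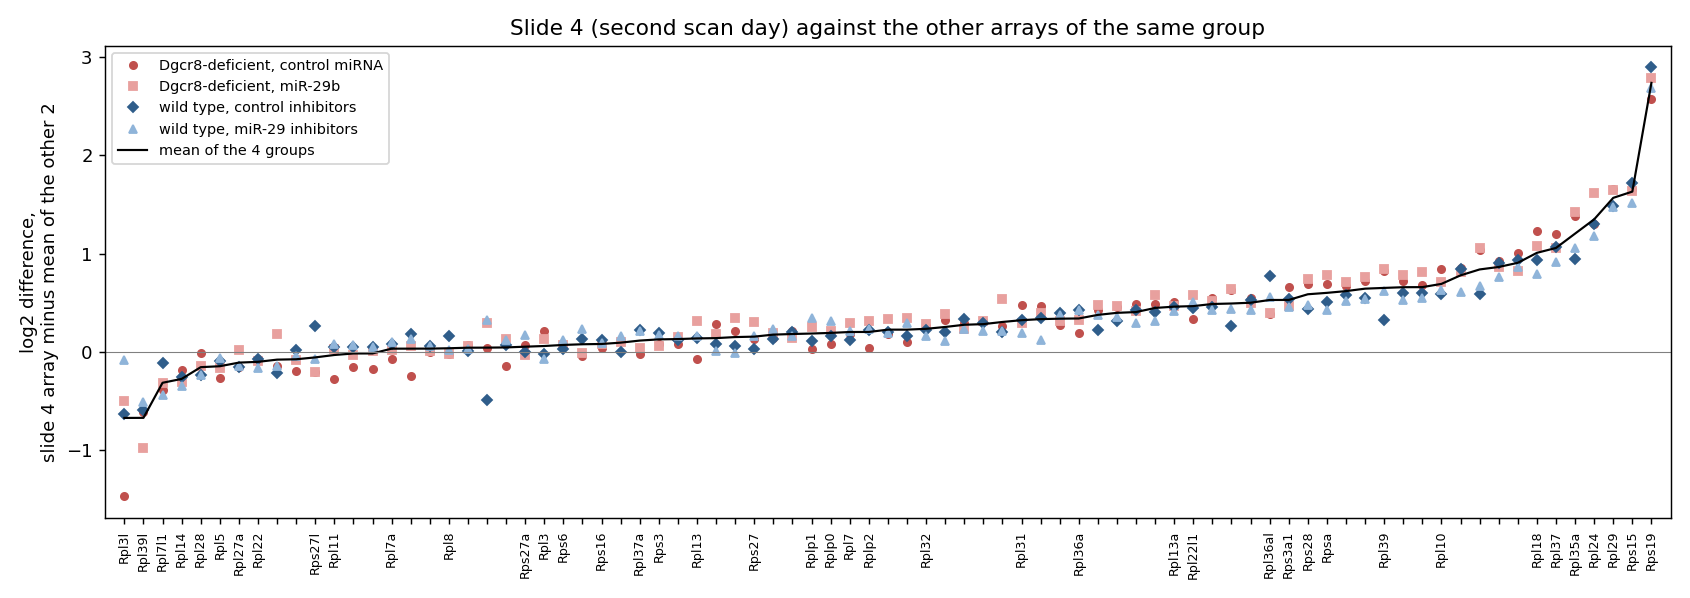
For each member (x axis, in order of the mean, with some genes described in the text named) the slide 4 array minus the mean of the other 2 arrays of its group is shown as a log2 difference (y axis), with 1 symbol per group and a line for the mean of the groups. For most genes the 4 symbols lie close together, Rpl3l being wide apart, and the means run from -0.68 for Rpl3l and Rpl39l up to 2.74 for Rps19.

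Each group had 1 array on slide 4, so the groups were balanced for it, while the spread of these members within groups was wide. Rps15 had the difference of -1.34 ± 0.69 between genotypes, among the largest in size, and did not pass (adjusted p = 0.211), and Rps19 had -0.64 ± 1.14. Mouse, slide and scan day cannot be told apart in it. By contrast Rpl8, Rps16 (pooled SD 0.11), Rpl3 and Rpl7a (0.13) varied little within groups. Of these, Rps16 and Rpl7a did not pass between genotypes (-0.30 ± 0.15 and -0.32 ± 0.15). For Rpl7a this depended on the probe. A dimmer probe gave -0.85 and passed over all kept probes (limma, adjusted p = 0.0097), while another gave -0.29 and did not.

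Where a gene had several probes, the probes mostly shared a direction but not a size. Of the members 30 had more than 1 kept probe, 66 in all, and 36 of these were dimmer than the brightest one. Between genotypes 35 of the 36 had the sign of the brightest probe, and 24 were more negative. The median was -0.95 over the dimmer probes and -0.75 over the brightest probes of the same genes. Rps18 had -0.37 on the brightest probe and -1.04 on the other, Rps2 had -0.40 and -0.86, and Rps25 had -0.64 and -1.15. The exception was Rpl22, whose dimmer probe gave 0.0002. Among the 10 members not read on the low-gain scan on every array 6 were lower, against 25 of the other 73. These probe differences were not tested.

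Genes that work with the ribosomal proteins were compared between the control groups by the same fit. Of 21 measured translation factors and other genes with the oligopyrimidine motif, 5 were lower and 0 higher, with a median of -0.39. The 5 were the elongation factor subunits Eef1b2 (-0.88 ± 0.19) and Eef1g (-0.82 ± 0.18), the initiation factor subunits Eif3k and Eif3f (-0.54 and -0.53), and Hnrnpa1 (-0.53). Of 46 genes of ribosome assembly and rRNA synthesis 5 were lower and 0 higher, with a median of -0.40. They were Nhp2 (-1.61 ± 0.45), a protein of box H/ACA particles, the RNA polymerase I subunits Polr1e (-1.03 ± 0.15) and Polr1d (-0.61), Taf1d (-0.63) and Utp14a (-0.71). Set against 12.4% of all genes that were lower, 5 of 46 is at the background.

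Upstream regulators were called in both directions, at or under the share of all genes (9.52% higher and 12.4% lower). Of 27 genes of mTOR and Myc control, Rheb (0.65 ± 0.15), the GTPase that activates mTORC1, and Sesn2 (0.79 ± 0.22) were higher and Sesn1 (-0.90 ± 0.23) was lower, the sestrins being inhibitors of mTORC1. The median of this list was 0.08. Of 14 genes that sense faulty ribosomes or free ribosomal proteins, 2 were higher: Cdkn1a (1.31 ± 0.20), the p53 target p21, and Map3k20 (1.84 ± 0.35), the kinase that responds to stalled ribosomes. With 9.52% of all genes higher, 2 of 14 is near the background, and the list had a median of 0.06 with 7 genes above and 7 below 0. With miR-29b and with the inhibitors, 0 genes of these 4 lists passed in limma. The medians with miR-29b were 0.21 for the translation factors, -0.02 for assembly, 0.08 for mTOR and Myc and -0.11 for sensing.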

How the data were processed

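The deposited scanner files hold spot intensity in 1 colour (Cy3) from Agilent Feature Extraction 10.5.1.1, background-subtracted and not scaled between arrays, per the file headers. The value table the authors deposited is on a log2 scale with near-equal distributions; the submitters' processing notes name limma, its steps are not given in the sources used here, and it served as an alternative. Levels are log2 of the processed signal minus the 75th percentile of the array, without control and outlier spots. Probes well above background on at least 3 of 12 arrays were kept, named through RefSeq accessions, with the brightest per gene. All 12 arrays entered 1 fit of 4 groups (limma 3.58.1, R 4.3.3) with Benjamini-Hochberg adjustment over 14699 genes at 0.05, tested on simulated data. Intervals are 95%. The number of arrays limits the precision.

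Mouse numbers pair the arrays of an animal within a genotype (correlations of deviations 0.430 to 0.753). Both arrays of a mouse also shared a slide, so animal and slide cannot be told apart in these correlations. Between genotypes the mouse was a random block. Members, lists and tests were chosen with earlier results of these data known. Named were members past the threshold, the 4 with the smallest p in each direction, 26 members with another role or a near paralog, and those with extreme spread; Rpl10l was not analysed here, and a few members that the rule names are not reported. Rps3a1 and Rpl29 with miR-29b, the members named for their probes and those next to the threshold were also chosen after their values were seen. Alternatives were other scalings, filters, probe rules, blocks and leaving out each array.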

Additional observations from a re-analysis of the deposited data

Results flagged for a closer look

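In 2 members the transfection differences ran in opposite directions in every mouse of the 2 genotypes. The rule was applied to the members only. How many of all genes meet it was not counted, so the 2 cannot be set against a background. Rps3a1 was below 0 with miR-29b in each Dgcr8-deficient mouse (-0.61, -0.45 and -0.72) and above 0 with inhibitors in each wild-type mouse (0.20, 0.04 and 0.04). The difference between both effects was -0.682, which did not pass in limma without a block (adjusted p = 0.853) while the fit blocked on the mouse called it (adjusted p = 0.0374).

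Rpl29 was below 0 with miR-29b in each mouse (-0.36, -0.18 and -0.28) and above 0 with inhibitors (0.08, 0.05 and 0.04). Its difference of -0.3304 did not pass. The inhibitor differences of both genes are small, and their group mean was just below 0 with quantile normalization (-0.0068 for Rps3a1 and -0.0236 for Rpl29) and in the authors' deposited values (-0.0047 and -0.0147).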

How the results depend on the processing

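Between genotypes the 31 members became 13 with cyclic loess, 19 with quantile normalization, 18 on the arrays of the comparison alone, 64 with scan day and 69 with slide as a block, and 16 to 34 without 1 array. Over all genes, 3216 were called in the main fit in either direction. The calls were 3313 with cyclic loess, 3331 with quantile normalization, 2388 on those arrays alone, 5836 with scan day and 6130 with slide. The median of -0.64 became -0.38 with cyclic loess and -0.37 with quantile normalization, and -0.87 to -0.51 without 1 array. With miR-29b, 0 members became 1 in the authors' deposited values, with quantile normalization and with probes well above background on all 12 arrays, 4 with scan day and 8 with slide as a block. The calls over all genes in these fits are not given here, so the counts are not set against a background. With the mouse as a block, the calls over all genes rose from 2.29% in either direction to 10.6% higher and 10.3% lower. The median of 0.30 became 0.16 in the authors' deposited values, 0.18 with median centring and 0.14 with quantile normalization, and 0.20 to 0.41 without 1 array. With inhibitors the median ran from -0.03 (without the control array of wild-type mouse 2) to 0.18 without 1 array, a change of sign. The median difference between both effects ran from 0.08 to 0.33. The causes were not tested.

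With the mouse as a block, 11 members passed with miR-29b, 30 between genotypes, 0 with inhibitors and 1 in the difference between both effects, where slide as a block also gave 1. Counting only members read on the low-gain scan (25 of 73 between genotypes), leaving out the paralogs (28 of 77) or taking the dimmest probe (27 of 83) was chosen after seeing the data. With the dimmest probe 2745 of all genes were called in either direction, against 3216 in the main fit from which the smaller sets were counted. Where an array was left out, its group kept 2.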
